A study of Mus musculus with 46 samples.

Results

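Heat shock proteins and DNAJ (J-domain) proteins are the cell's general folding machinery, and their transcripts were followed here in mouse macrophages in which the SWI/SNF chromatin remodelling complex had been perturbed. Members were taken by symbol from the deposited expression tables: every gene named Hspa, Hspb, Hspd, Hspe, Hsph or Hsp90 with its number or letters, leaving out Hspbp1 and Hspg2, and every gene named Dnaja, Dnajb or Dnajc with a number. The rule gave 73 genes in each table, 28 heat shock genes and 45 J-domain genes (4 Dnaja, 13 Dnajb and 28 Dnajc), among 24537 genes listed in experiments 1 and 3 and 25124 in experiments 2 and 4. Symbols alone decided membership, so Hspb11, an intraflagellar transport protein, and Hspbap1, named for a binding partner, are counted although neither is known as a chaperone.

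The cells were macrophages grown from mouse bone marrow, and poly(A)+ RNA was sequenced from 46 labelled samples in 23 groups of 2 over 4 experiments. In experiment 4, cells given ACBI1, BRM014 or BRDK98 and control cells received lipid A for 20 or 60 min, and control cells were also taken at 0 min. In experiment 1 the same 3 compounds and their control were taken at 4 hr of lipid A, with controls at 0 and 1 hr. Experiment 2 set Arid1a-/- cells against Arid1a f/f cells at 1 and 4 hr of LPS, with Arid1a f/f cells also at 0 hr, and experiment 3 set Pbrm1-/- cells against Pbrm1 f/f cells at 4 hr of lipid A, with Pbrm1 f/f cells also at 0 hr. Controls of experiments 1 and 4 are called WT in the labels. Lipid A is the part of LPS, the bacterial outer membrane glycolipid, that activates Toll-like receptor TLR4. ACBI1 is known to have SMARCA2, SMARCA4 and PBRM1 degraded, BRM014 is known to block the ATPase activity of SMARCA2 and SMARCA4, the motors of SWI/SNF, and for BRDK98 the labels give the code name only. Doses, length of compound treatment, vehicle, the age of the mice and the Cre driver are not given in the labels, and no perturbed group was taken without stimulation, so each perturbation is read in stimulated cells.

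HSP70 proteins bind exposed stretches of unfolded proteins in an ATP-driven cycle. J-domain proteins deliver clients to them and set off ATP hydrolysis, HSP110 proteins exchange the nucleotide, and HSP90 proteins take over late-stage clients. Heat shock factor HSF1 switches on the cytosolic set when proteins misfold, through repeated GAA units in promoters, while the endoplasmic reticulum (ER) set around Hspa5 is switched on by ER stress factors. In macrophages the ER member Hsp90b1 is needed to fold most Toll-like receptors, TLR4 among them.

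Values are TPM (a length-corrected share of each library's transcripts) that were further scaled by 1 median-ratio factor per library, and are called scaled TPM. Log2 differences are of scaled TPM + 1 and stand with their SE. A member was called, and is said to have risen or fallen, when its adjusted p was under 0.05 with the same sign both on scaled TPM and on TPM as deposited, in limma fits across all tested genes. Libraries held 7015041 to 27527080 exonic reads. Of the 73 members, 57 passed the filter (2 or more libraries at 1 TPM or above) in experiments 1, 2 and 4, and 53 in experiment 3. Groups hold 2 libraries, and nothing in the labels says whether these came from separate mice or cultures, so p-values measure only the spread between these libraries. The second 4 hr control column of experiment 1 repeats the first in all 24537 values, so that group is 1 library, which the fit assumes to vary like the others, and 45 libraries were used.

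Macrophage markers were high throughout, all 8 passing the filter in every experiment, while no lymphocyte, erythroid or mast cell marker passed it. Of 6 dendritic cell markers 1 passed in each experiment. In experiment 1 the group means of their summed level ran from 0.748 to 9.41 scaled TPM, highest with BRM014 at 4 hr. Of 4 stromal markers, 1 passed in experiment 2 and 2 in experiment 3. Granulocyte markers were present, 5, 4, 5 and 7 of 8 passing in experiments 1 to 4, with Ly6g at 0.426 scaled TPM or less in every library, and their summed levels are given with each set of comparisons. In bulk RNA, fewer cells of a type and less RNA per cell cannot be told apart. In experiment 1, replicate 1 of the 1 hr control stood apart with a summed level of 4 stromal markers of 112 scaled TPM, against 1.29 or less in every other library there, led by Col1a1 and Col1a2. Before scaling, the all-gene median differed by -0.38 and -0.84 (log2) at 1 and 4 hr of lipid A against 0 hr in experiment 1, and by 0.25 with ACBI1, 0.43 with BRM014 and 0.46 with BRDK98 against the 4 hr control, which is why a call needed both scales. Of the deleted genes, Arid1a stood at 6.28 and 11.04 scaled TPM in Arid1a-/- cells at 1 hr, against 16.3 and 15.4 in Arid1a f/f cells (-0.85 ± 0.19, called), and at 30.96 and 31.9 at 4 hr, against 46.4 and 54.7 (-0.66 ± 0.19, not called). Pbrm1 stood at 5.77 and 6.74 in Pbrm1-/- cells, against 19.6 and 15.6 in Pbrm1 f/f cells (-1.35 ± 0.17, not called). Whole-gene values may include exons that a deletion leaves in place.

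Promoter sequence is shown for the members the results turn on, since HSF1 and ER stress factors act there. RefSeq promoters (GRCm38.p6, 250 bases before to 50 after the start) were available for 59 of the 73 members. Each was searched on both strands for the heat shock element of 2 units (GAANNTTC or TTCNNGAA), the element of 3 units (GAANNTTC followed by NNGAA, or TTCNNGAA followed by NNTTC, so that it contains the shorter one) and the ER stress element (CCAAT and CCACG with 9 free bases between). The 2-unit element stood in 16 of 59 members (27.1%), against 17.0% of all 27025 genes with a promoter. The 3-unit element stood in 4 members (6.78%), Dnajb6, Hspd1, Hspe1 and Hsph1, against 0.662% of all genes, and the ER stress element in 3 (5.08%), Dnajc3, Hsp90b1 and Hspa5, against 0.137%. A match is a match of letters, not a shown binding site. Below, 5′ to 3′ on the gene's own strand, capitals mark the matches.
Hspa1a, inducible HSP70, chr17:34972107-34972406, minus strand, 2-unit element: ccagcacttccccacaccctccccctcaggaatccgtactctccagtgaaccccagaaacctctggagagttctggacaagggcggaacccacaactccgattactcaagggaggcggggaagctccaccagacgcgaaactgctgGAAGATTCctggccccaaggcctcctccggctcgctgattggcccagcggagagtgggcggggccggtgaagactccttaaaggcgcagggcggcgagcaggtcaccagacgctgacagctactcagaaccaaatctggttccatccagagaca
Hspa1b, the near-identical copy, chr17:34959189-34959488, minus strand, 2-unit element: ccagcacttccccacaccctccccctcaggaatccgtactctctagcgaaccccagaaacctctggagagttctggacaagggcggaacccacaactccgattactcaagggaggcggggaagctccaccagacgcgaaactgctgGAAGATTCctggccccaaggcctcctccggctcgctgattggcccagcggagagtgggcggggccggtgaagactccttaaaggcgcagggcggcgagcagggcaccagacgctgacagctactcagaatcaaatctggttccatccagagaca
Dnajb1, the main stress-induced partner of Hspa1a, chr8:83607925-83608224, plus strand, no match: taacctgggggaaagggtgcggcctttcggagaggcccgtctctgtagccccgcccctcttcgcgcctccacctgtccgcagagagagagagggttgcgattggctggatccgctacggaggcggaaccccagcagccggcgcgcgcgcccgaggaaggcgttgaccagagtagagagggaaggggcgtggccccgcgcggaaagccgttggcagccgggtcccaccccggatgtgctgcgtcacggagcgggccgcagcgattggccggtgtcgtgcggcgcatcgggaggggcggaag
Hspa5, the ER HSP70 (BiP), chr2:34771840-34772139, plus strand, ER stress element: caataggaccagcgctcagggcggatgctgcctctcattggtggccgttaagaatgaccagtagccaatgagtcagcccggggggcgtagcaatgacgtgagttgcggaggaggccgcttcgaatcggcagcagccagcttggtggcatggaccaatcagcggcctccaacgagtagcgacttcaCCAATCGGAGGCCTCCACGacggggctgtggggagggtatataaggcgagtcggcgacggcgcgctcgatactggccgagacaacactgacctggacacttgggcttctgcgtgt
Hspe1, the mitochondrial co-chaperonin, chr1:55087898-55088197, plus strand, 3-unit element: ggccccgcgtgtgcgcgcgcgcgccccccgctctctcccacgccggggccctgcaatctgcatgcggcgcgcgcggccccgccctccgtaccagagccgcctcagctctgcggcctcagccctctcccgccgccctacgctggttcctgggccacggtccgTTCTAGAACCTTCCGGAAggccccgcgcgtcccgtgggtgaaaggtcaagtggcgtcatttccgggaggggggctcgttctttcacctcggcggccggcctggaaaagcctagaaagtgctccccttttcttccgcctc
The Hspa1a and Hspa1b promoters shared 296 of 300 bases (98.7%), with the 2-unit element at position -104 from the start in both. In Hspa5 the ER stress element lay at position -65. Hspe1 and Hspd1 start close together on opposite strands, so that the window shown for Hspe1 also holds the element of Hspd1.

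Levels spanned a wide range. The most abundant member in every experiment was Hspa5, with medians over libraries of 786, 863, 1109 and 504 scaled TPM in experiments 1 to 4, and in experiment 1 it was followed by Hsp90ab1, the constitutive cytosolic HSP90, at 439. Hspa1a and Hspa1b were near 0 in unstimulated control cells of experiment 4, with 0.314 and 0.262 scaled TPM for Hspa1a in the 0 min libraries and 0.157 and 0.240 for Hspa1b. In experiment 2, replicate 1 of the 0 hr control held 1.25 for Hspa1a and 1.49 for Hspa1b, against 0.397 and 0.430 in replicate 2. Below the filter in all 4 experiments lay 15 members: Dnaja4, Dnajb3, Dnajb7, Dnajb8, Dnajc5b, Dnajc5g, Dnajc6, Dnajc22, Hspa12a, Hspa12b and the small heat shock genes Hspb1, Hspb2, Hspb3, Hspb7 and Hspb8. Of the 58 members tested in at least 1 experiment, 51 were called in at least 1 comparison of perturbed with control cells. Of the other 7, Dnajc4, Dnajc19, Hspa1l and Hspb9 were not called between stimulated and unstimulated controls either; they are named here after their values were seen. Because reads on both strands were counted, members whose exons overlap another gene can hold its reads, among them Dnaja1 (Smu1), Dnaja3 (Coro7 and Vasn), Dnajc7 (Cnp and Nkiras2) and Hspd1 and Hspe1 (each other), whereas Dnaja2, Dnajb1, Dnajb4, Hspa5, Hspa9, Hsph1 and Dnajc15 overlap none. Levels are compared within an experiment only, since 16 members were counted on a different transcript record or length in different experiments.

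The stimulus alone was compared first, in control cells. At 20 min of lipid A, 0 of 57 members were called against 0 min in control cells (1.08% of all genes called, 0.736% higher and 0.346% lower). At an unadjusted p under 0.05 the count was 12, for which no share of all genes is given here. The fit on recovered reads gave 0, and the authors' deposited table gave 1, beside 611 of all genes. Leaving out replicate 2 of the 0 min control gave 2.

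By 60 min, 13 members had risen and 6 had fallen in control cells, against 25.5% of all genes called, 7.47% higher and 18.1% lower. Dnajb4, a cytosolic J-domain partner of HSP70, stood at 46.3 and 48.5 scaled TPM at 60 min, against 6.58 and 5.02 at 0 min, a log2 difference of 2.84 ± 0.10 (adjusted p = 3.13e-11). Hspa1a stood at 3.51 and 3.45 at 60 min, against 0.314 and 0.262 at 0 min, a difference of 1.80 ± 0.13 (adjusted p = 1.42e-07). In both genes the 60 min libraries lay far above the 0 min ones. Hspa1b, Dnajb5 and Dnajb2, the last a neuron-enriched J-domain protein, rose by 1.59, 1.30 and 1.29, and Dnajb1 rose by 0.87 ± 0.08. Falling members included the mitochondrial J-domain gene Dnaja3 (-0.51) and Dnajc18 (-0.74). Of 11 tested members on a list of heat-inducible chaperones, 5 rose and 1 fell, with a median of 0.70 against 0.00 for all genes, whose called shares were 7.47% higher and 18.1% lower. The summed level of 8 granulocyte markers was 396 and 383 scaled TPM at 20 min and 505 and 508 at 60 min, against 285 and 285 at 0 min, and its part in the results was not tested.

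Dnajb4 also rose at 1 hr in the other experiments that took this time, each with its own controls. In experiment 1, Dnajb4 stood at 114 and 113 scaled TPM at 1 hr of lipid A, against 9.79 and 8.999 at 0 hr (3.46 ± 0.10, adjusted p = 1.21e-09), and 13 members rose and 7 fell, against 29.1% of all genes called, 9.90% higher and 19.2% lower. Without the library with stromal markers, 17 members were called and the Dnajb4 difference was 3.45. In Arid1a f/f cells of experiment 2, Dnajb4 stood at 39.04 and 38.5 at 1 hr of LPS, against 6.52 and 7.48 at 0 hr (2.32 ± 0.10, adjusted p = 5.36e-08). Hspa1a rose at 1 hr to 3.11 and 3.15 in experiment 1, against 0.257 and 0.235 at 0 hr (1.73 ± 0.13), and to 4.09 and 4.29 in experiment 2, against 1.25 and 0.397 (1.55 ± 0.22). Dnajb1 was called in neither, at 19.4 and 15.6 against 12.4 and 11.7 in experiment 1 and 15.5 and 16.002 against 16.8 and 14.6 in experiment 2. In experiment 2 Hspa1b rose by 1.95, Dnajb5 by 1.501 and Hsp90aa1, the inducible cytosolic HSP90, by 1.10, while Dnajc28 fell to 0.790 and 0.471, against 5.83 and 6.41 at 0 hr (-2.13). In that comparison 14 members rose and 8 fell, against 33.8% of all genes called, 13.6% higher and 20.2% lower. Leaving out 1 library at a time gave 14, 10, 13 and 13 calls, for replicates 1 and 2 of the 0 hr and then of the 1 hr control. Granulocyte markers summed to 32.8 and 22.1 at 1 hr, against 16.3 and 24.3 at 0 hr in experiment 1, and to 21.3 and 22.05 against 6.63 and 8.11 in experiment 2, and their part was not tested.

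At 4 hr Dnaja2, Dnaja1 and Hspa5 rose in all 3 experiments. Dnaja2, a cytosolic J-domain partner of Hspa8, stood at 337 and 315 scaled TPM in Arid1a f/f cells at 4 hr of LPS, against 48.2 and 48.2 at 0 hr (2.73 ± 0.09, adjusted p = 8.49e-10). In Pbrm1 f/f cells at 4 hr of lipid A it stood at 592 and 414, against 54.8 and 43.3 at 0 hr (3.32 ± 0.21, adjusted p = 1.87e-05). In experiment 1 the lone 4 hr control library held 1041, against 51.03 and 46.5 at 0 hr (4.39 ± 0.10, adjusted p = 2.00e-10). In all 3 experiments the 4 hr libraries lay several times above the 0 hr ones. Its relative Dnaja1 rose by 3.42, 2.21 and 2.48 in experiments 1, 2 and 3, and Hspa5 by 2.30, 1.80 and 1.34, the last call ending without replicate 2 of either Pbrm1 f/f group (differences of 1.13 without that at 0 hr and 1.33 without that at 4 hr). Hsph1, the stress-induced HSP110, fell by 0.72 in experiment 1 and by 1.02 in experiment 3. In experiment 2 it stood at 4.47 and 4.07 at 4 hr, against 7.43 and 7.98 at 0 hr. Dnajb4, high at 1 hr, was lower at 4 hr of LPS than at 0 hr in experiment 2, at 3.59 and 3.30 against 6.52 and 7.48 (-0.85). This was not so in the other experiments. In experiment 3 Dnajb4 stood at 13.3 and 9.02 at 4 hr, against 13.3 and 10.2 at 0 hr (-0.08, not called). In experiment 1 the lone 4 hr library held 11.7 scaled TPM, above both 0 hr libraries. Dnajc28, low at 1 hr of LPS, was low at 4 hr too, at 0.207 and 0.279 against 5.83 and 6.41 at 0 hr (-2.52 ± 0.15, adjusted p = 7.74e-08), and was called lower in experiments 1 and 3 as well (-2.46 and -1.77), where it is named after its values were seen. Members called higher and lower numbered 18 and 12 in experiment 1 (57.5% of all genes called, 20.1% higher and 37.4% lower). They numbered 13 and 12 in experiment 2 (53.4% of all genes called, 17.9% higher and 35.5% lower). They numbered 7 and 6 of 53 in experiment 3 (46.6% of all genes called, 16.0% higher and 30.6% lower). With higher and lower calls summed, the share of members called was below that of all genes in each experiment. The share called lower was also below that of all genes in each. The share called higher was above that of all genes in experiments 1 and 2 and below it in experiment 3. In experiment 3 the summed count of members called was 8 without either replicate of the 0 hr control. Granulocyte markers summed to 31.5 at 4 hr, against 16.3 and 24.3 at 0 hr in experiment 1, to 34.9 and 21.8 against 6.63 and 8.11 in experiment 2 and to 545 and 556 against 265 and 248 in experiment 3, and their part was not tested.

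At 20 min of lipid A few chaperone genes were called with the compounds. Dnajb1 was the single member called, in BRDK98-treated cells, at 20.7 and 19.7 scaled TPM, against 13.6 and 13.6 in control cells (0.54 ± 0.08, adjusted p = 0.00211), against 1.33% of all genes called, 0.485% higher and 0.849% lower. The libraries did not overlap, but the call was lost when any 1 of the 4 was left out, with differences of 0.50 and 0.57 without BRDK98 replicate 1 or 2, and 0.54 and 0.54 without control replicate 1 or 2. Hspa1a, at 1.14 and 1.29 scaled TPM in BRDK98-treated cells against 0.322 and 0.610 in control cells, differed by 0.60 and passed on scaled TPM only (adjusted p = 0.0393). With ACBI1 (0.147% of all genes called, 0.0866% higher and 0.0606% lower) and with BRM014 (0.390% of all genes called, 0.0606% higher and 0.329% lower) the counts were 0 of 57. At an unadjusted p under 0.05, 5 members passed with each of these compounds, and the fit on recovered reads called 0 with ACBI1 and 1 with BRM014. The authors' deposited table has 2 with ACBI1 (0 higher, 2 lower), beside 367 of all genes. With BRM014 it has 1 (0 higher, 1 lower), beside 712 of all genes. Granulocyte markers summed to 392 and 413 with ACBI1, 404 and 398 with BRM014 and 392 and 382 with BRDK98, against 396 and 383 in control cells.

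At 60 min chaperone genes were called with all 3 compounds, led by Dnajb1 with BRM014, Hspa1a with BRDK98 and Dnaja2 with ACBI1. All are set against the same 2 control libraries, so their values stand side by side and no overlap between them is counted. With ACBI1, 7 members rose and 7 fell (25.2% of all genes called, 11.6% higher and 13.7% lower). With BRM014, 18 rose and 6 fell (30.2% of all genes called, 16.8% higher and 13.4% lower). With BRDK98, 13 rose and 0 fell (11.6% of all genes called, 6.05% higher and 5.53% lower). The share of members called with ACBI1, 14 of 57, was close to that of all genes. Without BRM014 replicate 2 the BRM014 count was 38, and the ACBI1 count was 8 and 9 without control replicates 1 and 2 and 7 without ACBI1 replicate 2. These counts stand without the share of all genes under the same setting. The 2 BRM014 libraries stood at 8.998 and 19.99 scaled TPM for Arid1a and 7.80 and 14.4 for Pbrm1. For Smarca4 they stood at 22.7 and 27.2, and for Smarca2 at 12.3 and 9.58. The part of this spread in the counts was not tested.

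**Figure D1:**
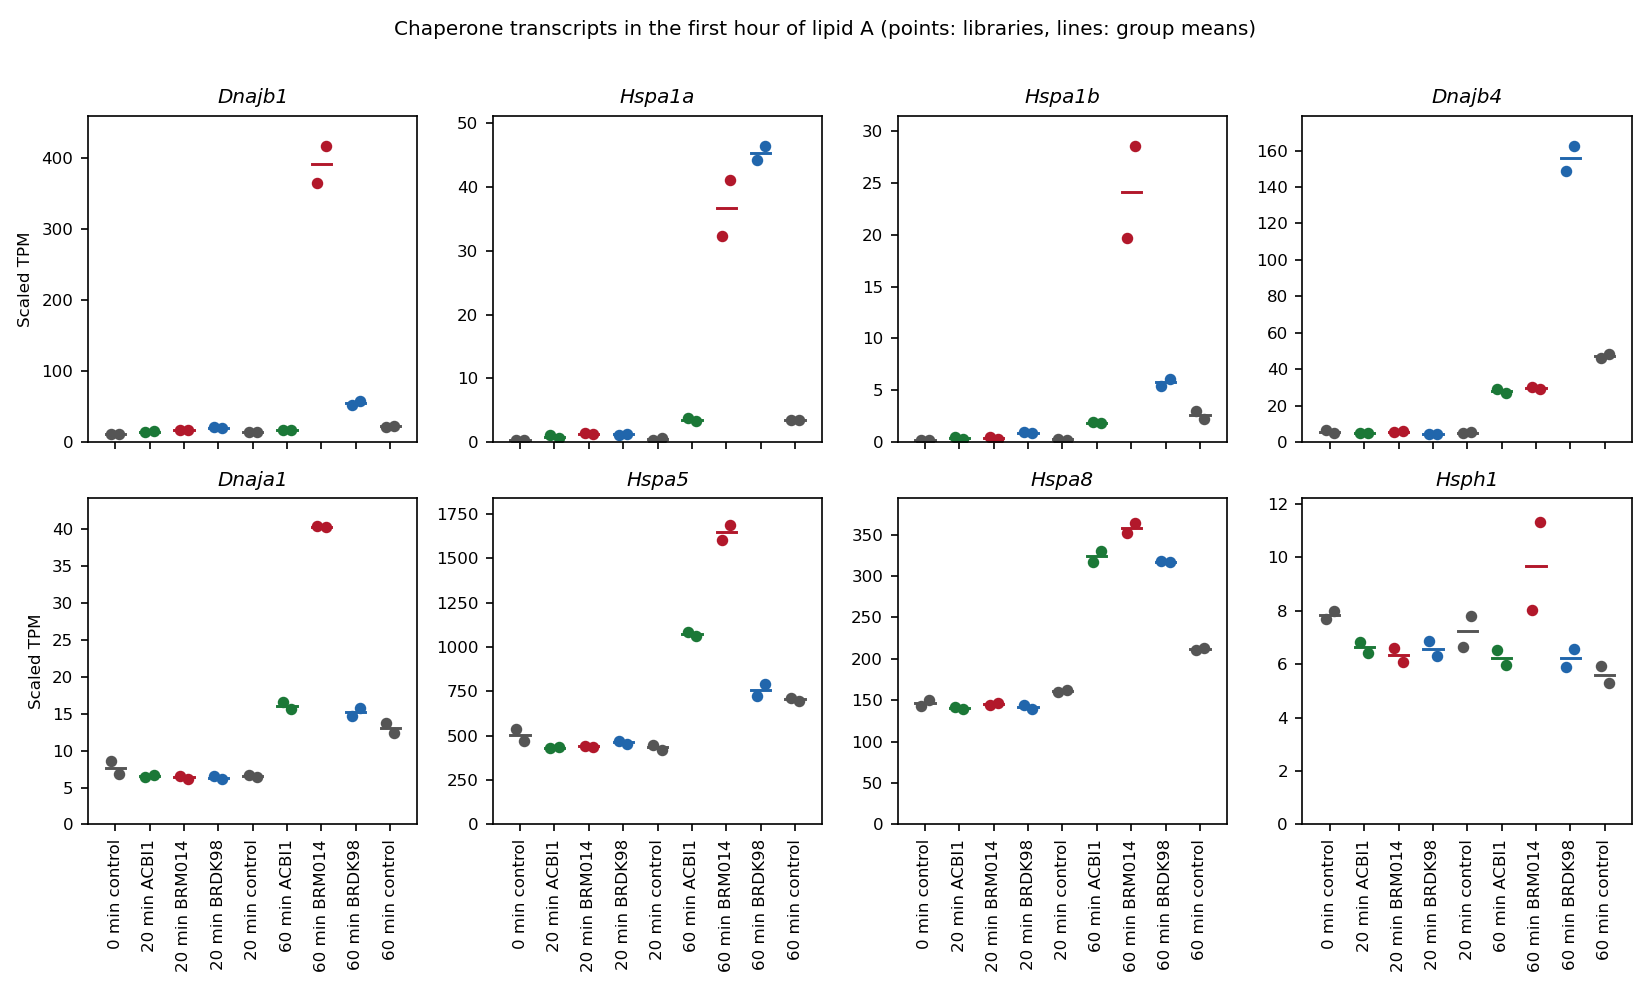
Scaled TPM of 8 chaperone genes in each library of experiment 4 (points) with group means (lines), by time of lipid A and treatment, on linear axes from 0. At 60 min Dnajb1 stands at 364 and 417 with BRM014, against 21.1 and 23.2 in control cells, and Dnajb4 at 149 and 163 with BRDK98, against 46.3 and 48.5.

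Among HSP70 genes Hspa1a had the largest difference with BRM014 and with BRDK98. Hspa1a stood at 32.3 and 41.2 scaled TPM with BRM014 and 44.2 and 46.4 with BRDK98, against 3.51 and 3.45 in control cells. The log2 differences were 3.06 ± 0.13 with BRM014 (adjusted p = 1.00e-09) and 3.37 ± 0.13 with BRDK98 (adjusted p = 5.97e-10). With ACBI1 it stood at 3.74 and 3.31, a difference of 0.01 with a 95% interval of -0.27 to 0.30. All 4 BRM014 and BRDK98 libraries lay above every control and ACBI1 library. Its copy Hspa1b stood at 19.7 and 28.6 with BRM014 (2.78 ± 0.16) but only 5.43 and 6.12 with BRDK98 (0.91 ± 0.16), against 3.03 and 2.22 in control cells. In reads, Hspa1a had 1614 and 1798 and Hspa1b 199 and 238 with BRDK98, a ratio of 8.11 and 7.56, whereas with BRM014 Hspa1a had 1186 and 1705 and Hspa1b 726 and 1189, a ratio of 1.63 and 1.43, and the control libraries had a ratio of 1.15 and 1.55. Reads of the 2 copies can be split between them by the aligner, and Hspa1a overlaps Gm20481 on the other strand while reads were counted on both strands, so the values of each copy alone are uncertain; the part of either in this ratio was not tested.

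The other HSP70 genes had smaller differences. Hspa8, the constitutive cytosolic HSP70, stood at 317 and 330.1 with ACBI1, 352 and 364 with BRM014 and 318 and 317 with BRDK98, against 211 and 213 scaled TPM in control cells. It rose by 0.61 with ACBI1, 0.75 with BRM014 and 0.58 with BRDK98, and no treated library reached down to the controls. Hspa5 stood at 1083 and 1064 with ACBI1 and 1604 and 1689 with BRM014, against 712 and 698 in control cells, and rose by 0.61 ± 0.08 (adjusted p = 4.37e-05) and 1.22 ± 0.08 (adjusted p = 3.93e-08). With BRDK98 it stood at 726 and 794 and was not called (95% interval of the difference -0.06 to 0.27). Hspa9, the mitochondrial HSP70, rose with BRDK98 to 124 and 129, against 65.95 and 70.9 in control cells (0.88 ± 0.07, adjusted p = 5.50e-07), and stood at 66.3 and 62.2 with BRM014, where it was not called. With ACBI1 it fell, to 61.3 and 58.6 (-0.19 ± 0.07, adjusted p = 0.0483), a call that the fit on recovered reads did not make and that ended when any 1 of the 4 libraries was left out, with differences of -0.24 to -0.14. Hspa2, best known from the testis, rose with BRM014 to 15.9 and 23.1, against 4.36 and 3.95 (1.97). Hspa13, an ER-associated HSP70-like ATPase, went opposite ways: it stood at 9.36 and 12.6 with BRM014 (-0.91) and 45.7 and 54.3 with BRDK98 (1.19), against 20.4 and 22.1 in control cells.

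Among J-domain genes Dnajb1, the stress-induced partner of Hspa1a, showed the largest difference of any member between perturbed and control cells in the comparisons run. It stood at 364 and 417 scaled TPM with BRM014, 52.5 and 58.1 with BRDK98 and 16.4 and 17.2 with ACBI1, against 21.1 and 23.2 in control cells. Both BRM014 libraries lay above all others, the BRDK98 libraries came next, and both ACBI1 libraries lay below the controls. The log2 differences were 4.08 ± 0.08 with BRM014 (adjusted p = 6.97e-13), 1.28 ± 0.08 with BRDK98 (adjusted p = 5.04e-08) and -0.38 ± 0.08 with ACBI1 (adjusted p = 0.0022). Dnajb4, the leading early riser, stood at 149 and 163 with BRDK98, 30.2 and 29.1 with BRM014 and 28.9 and 27.2 with ACBI1, against 46.3 and 48.5 in control cells. It rose by 1.69 ± 0.10 with BRDK98 (adjusted p = 2.34e-08) and fell with BRM014 (-0.66 ± 0.10, adjusted p = 1.56e-04) and with ACBI1 (-0.74 ± 0.10, adjusted p = 5.87e-05), with no overlap between either set and the controls.

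Other J-domain genes were called with 1 or more of the compounds. Dnaja1, a farnesylated partner of cytosolic HSP70, rose with BRM014 to 40.4 and 40.3, against 13.8 and 12.5 in control cells (1.55 ± 0.09), and stood at 16.6 and 15.6 with ACBI1 and 14.7 and 15.8 with BRDK98, not called. Its relative Dnaja2 rose with ACBI1 to 176 and 175 (0.89 ± 0.09) and fell with BRM014 to 61.1 and 56.7 (-0.67 ± 0.09), against 103 and 86.3 in control cells. Dnajb9, an ER J-domain protein and ER stress target, rose by 1.56 with BRM014 and 0.80 with BRDK98, and fell with ACBI1 (-0.36 ± 0.12), a call that ended when any 1 of the 4 libraries was left out, with differences of -0.38 to -0.35. Dnajc12, a cytosolic J-domain protein that assists aromatic amino acid hydroxylases, rose with BRDK98 to 34.7 and 35.7, against 13.4 and 14.1 (1.30), and fell with ACBI1 to 8.21 and 8.84 (-0.63). Dnajb5 and Dnajb2 fell with BRM014, by 0.75 and 0.58 on the log2 scale. Dnajb2, named for the other 2 compounds after its values were seen, was called higher with BRDK98, at 25.4 and 24.9 against 12.9 and 14.3 in control cells (0.85 ± 0.11), and lower with ACBI1 (-0.35 ± 0.11). The ER member Dnajb11 rose with ACBI1 (0.46).

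Of 3 HSP90 genes, 2 rose with BRM014, 1 rose with BRDK98 and 1 fell with ACBI1, and of 3 HSP110 genes 1 rose with BRM014 and 1 with BRDK98. Of all genes, 16.8% higher and 13.4% lower were called with BRM014, 6.05% higher and 5.53% lower with BRDK98 and 11.6% higher and 13.7% lower with ACBI1. Hsp90aa1 rose to 25.4 and 40.7 with BRM014, against 18.1 and 19.6 in control cells (0.74 ± 0.15, adjusted p = 0.00211), with the 2 BRM014 libraries far from each other. Hsp90ab1 rose by 0.57 ± 0.07 with BRM014, to 354 and 344 against 230.1 and 239, and Hsph1 by 0.68 ± 0.13, to 8.04 and 11.3 against 5.92 and 5.31. Hspa4, the constitutive HSP110, rose with BRDK98 to 62.3 and 65.1, against 41.8 and 41.9 (0.59 ± 0.05). The ER HSP90 Hsp90b1 and the chaperonin subunits Hspd1 and Hspe1 were called with none of the 3. Hspb1, a small heat shock protein below the filter, had 12 and 14 reads with BRM014, 0 and 0 with ACBI1 and BRDK98, and 0 and 1 in control cells; it was not tested.

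Lists of related genes were counted in the same way, beside shares of all genes called of 16.8% higher and 13.4% lower with BRM014, 6.05% higher and 5.53% lower with BRDK98 and 11.6% higher and 13.7% lower with ACBI1. Of 11 tested heat-inducible members, 8 rose and 1 fell with BRM014 (median log2 difference 0.74), 6 rose and 0 fell with BRDK98 (0.29), and 1 rose and 3 fell with ACBI1 (-0.11), where the median of all genes was 0.01. Of 25 tested genes for HSF1 and co-chaperones of HSP70 and HSP90, 7 rose and 0 fell with BRM014, among them Tomm34 (1.12), Bag3 (0.69), a nucleotide exchange factor induced by HSF1, and Fkbp4 (0.65), an HSP90-binding immunophilin. With BRDK98 0 rose and 1 fell, and with ACBI1 1 rose, Ahsa1 (0.97), the activator of HSP90 ATPase activity, and 0 fell. Of 14 genes for the cytosolic chaperonin TRiC and for prefoldin, 6 rose with BRM014, 0 with BRDK98 and 0 with ACBI1, where 1 fell. On the ER stress list, 8 of 25 tested genes rose and 3 fell with BRM014, led by the transcription factor gene Ddit3 (2.11), 4 rose and 1 fell with BRDK98 (Ddit3 1.42), and 7 rose and 3 fell with ACBI1. The summed level of 8 granulocyte markers was 358 and 384 scaled TPM with ACBI1, 607 and 479 with BRM014 and 453 and 534 with BRDK98, against 505 and 508 in control cells, and its part in these results was not tested.

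**Figure D2:**
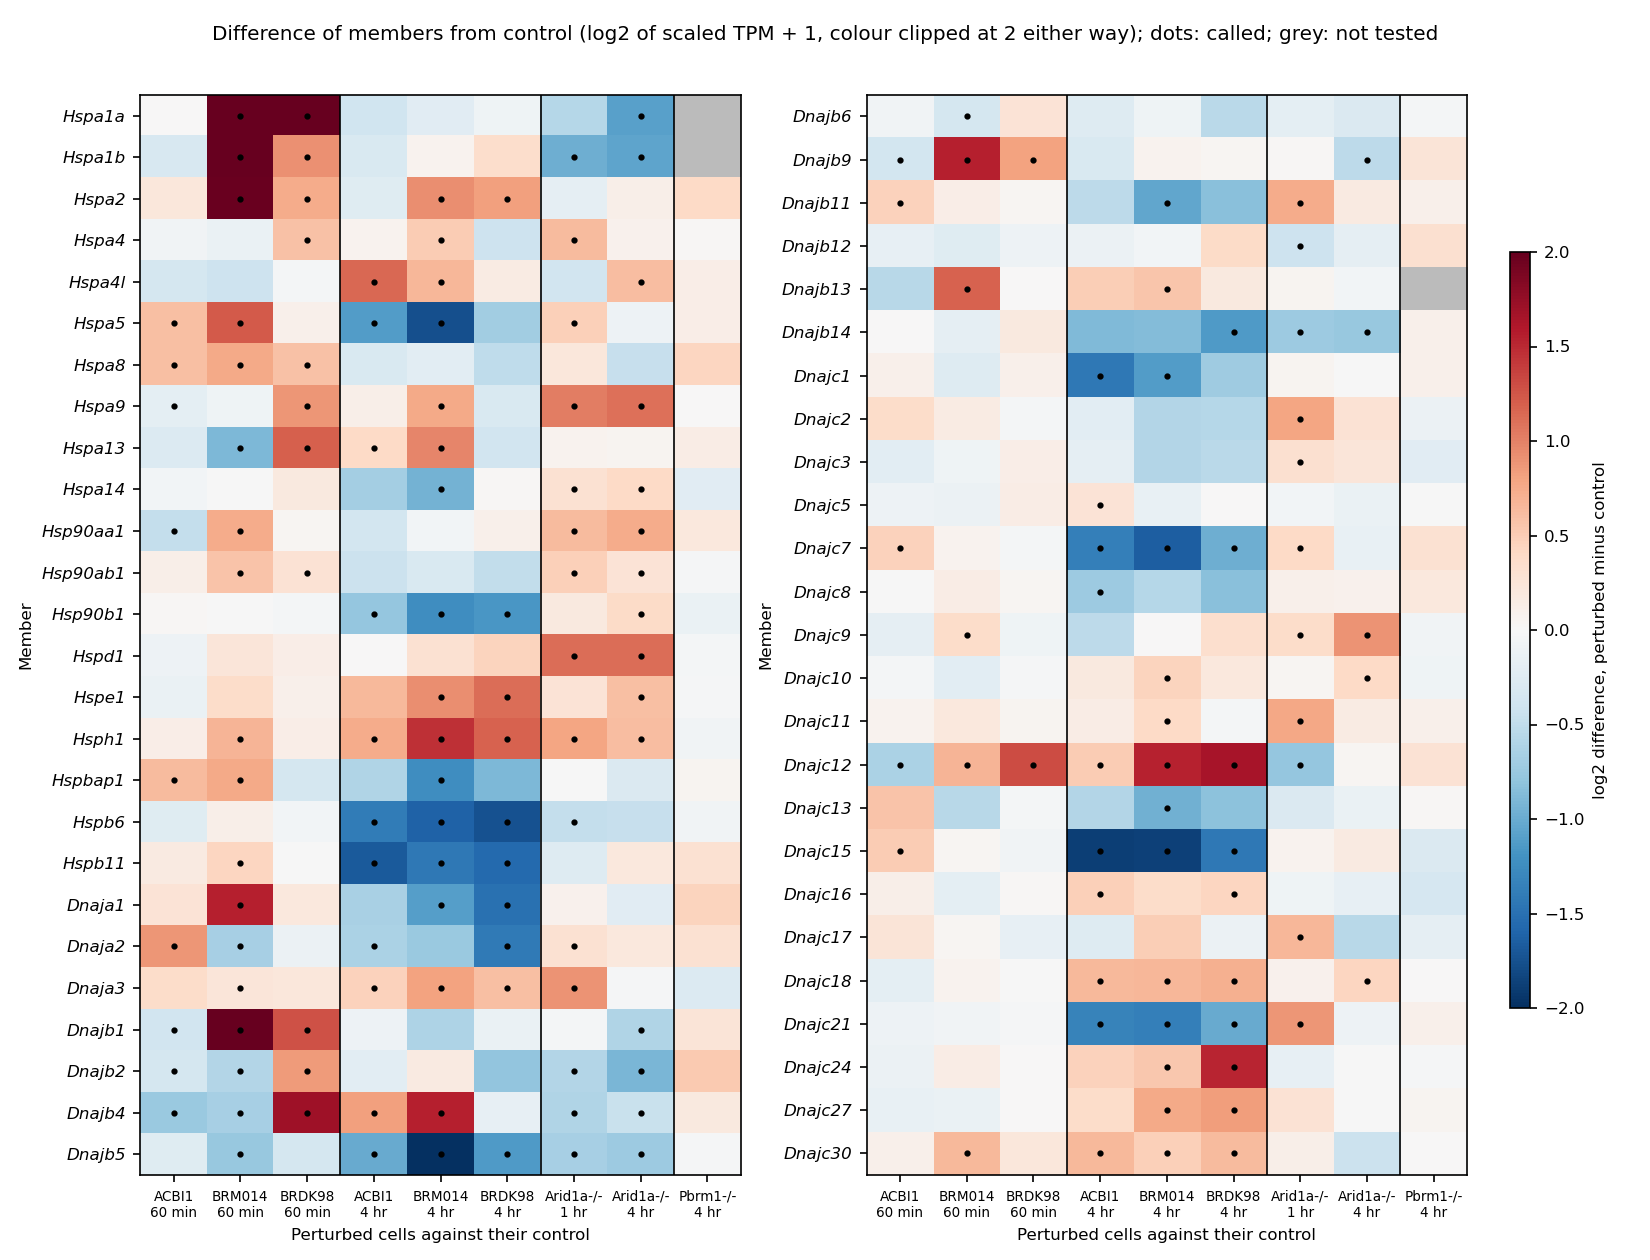
Log2 difference of scaled TPM + 1 between perturbed and control cells for the 51 members called in at least 1 of the 9 comparisons shown, with colour clipped at 2 either way, dots for calls and grey for members not tested. Dnajb1, Hspa1a and Hspa1b are the darkest with BRM014 at 60 min, and the Pbrm1-/- column holds no dot.

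Direct comparisons of the compounds at 60 min, which were chosen after the data were seen and use no control library, gave the sizes of these differences. For BRM014 against ACBI1, 19 members were higher and 5 lower (47.8% of all genes called, 28.2% higher and 19.6% lower), led by Dnajb1 (4.46 ± 0.08), Hspa1b (3.10 ± 0.16) and Hspa1a (3.05 ± 0.13), with Dnaja2 lowest (-1.56 ± 0.09). For BRDK98 against ACBI1, 18 were higher and 6 lower (35.0% of all genes called, 20.7% higher and 14.3% lower), led by Hspa1a (3.36 ± 0.13), Dnajb4 (2.43 ± 0.10) and Dnajc12 (1.93 ± 0.07). This count was 14 without ACBI1 replicate 2 and 15 without BRDK98 replicate 2. Adjusted p-values of the genes just named were 1.17e-08 or less. For BRDK98 against BRM014, 12 were higher and 13 lower (26.8% of all genes called, 14.4% higher and 12.3% lower). Dnajb4 (2.35 ± 0.10), Hspa13 (2.10 ± 0.12) and Dnajb2 (1.43 ± 0.11) were higher with BRDK98, and Dnajb1 (-2.80 ± 0.08), Hspa1b (-1.87 ± 0.16), Dnaja1 (-1.35 ± 0.09), Hspa2 (-1.23 ± 0.14) and Hspa5 (-1.11 ± 0.08) were lower. Adjusted p-values of these were 1.45e-05 or less. Hspa1a was not called between BRDK98 and BRM014, the difference being 0.31 with a 95% interval of 0.02 to 0.59. Doses are not given, so the compounds may not have been used at matched strength.

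The change of each compound's effect between 20 and 60 min was tested as an interaction. It was called for 9 members with ACBI1 (18.5% of all genes called, 9.37% higher and 9.12% lower), 19 with BRM014 (13.3% of all genes called, 6.85% higher and 6.41% lower) and 9 with BRDK98 (6.66% of all genes called, 3.58% higher and 3.08% lower). With BRM014 the effect on Dnajb1 was larger at 60 than at 20 min by 3.82 ± 0.11, and on Hspa1a by 2.41 ± 0.19. With BRDK98 the effect on Hspa1a was larger by 2.77 ± 0.19 and on Dnajb4 by 1.82 ± 0.14.

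At 4 hr of lipid A the inducible HSP70 pair was no longer called, and the lowest differences were among J-domain, ER and small heat shock genes, each compound being set against the same single control library. With ACBI1, 10 members rose and 11 fell (33.4% of all genes called, 20.0% higher and 13.5% lower), with BRM014 17 rose and 14 fell (42.8% of all genes called, 26.4% higher and 16.4% lower), and with BRDK98 10 rose and 10 fell (34.5% of all genes called, 22.0% higher and 12.4% lower). Every value here rests on that 1 library, which has no replicate to check it. The summed level of macrophage markers was 29440.4 and 28544 scaled TPM with ACBI1, 28486 and 27246 with BRM014 and 17891 and 18204 with BRDK98, against 27702 in the control. The summed level of 8 granulocyte markers was 35.1 and 27.7 with ACBI1, 51.3 and 42.2 with BRM014 and 6.11 and 6.09 with BRDK98, against 31.5 in the control, with Ly6g at 0 in 10 of the 11 libraries. Their part in the results was not tested.

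**Figure D3:**
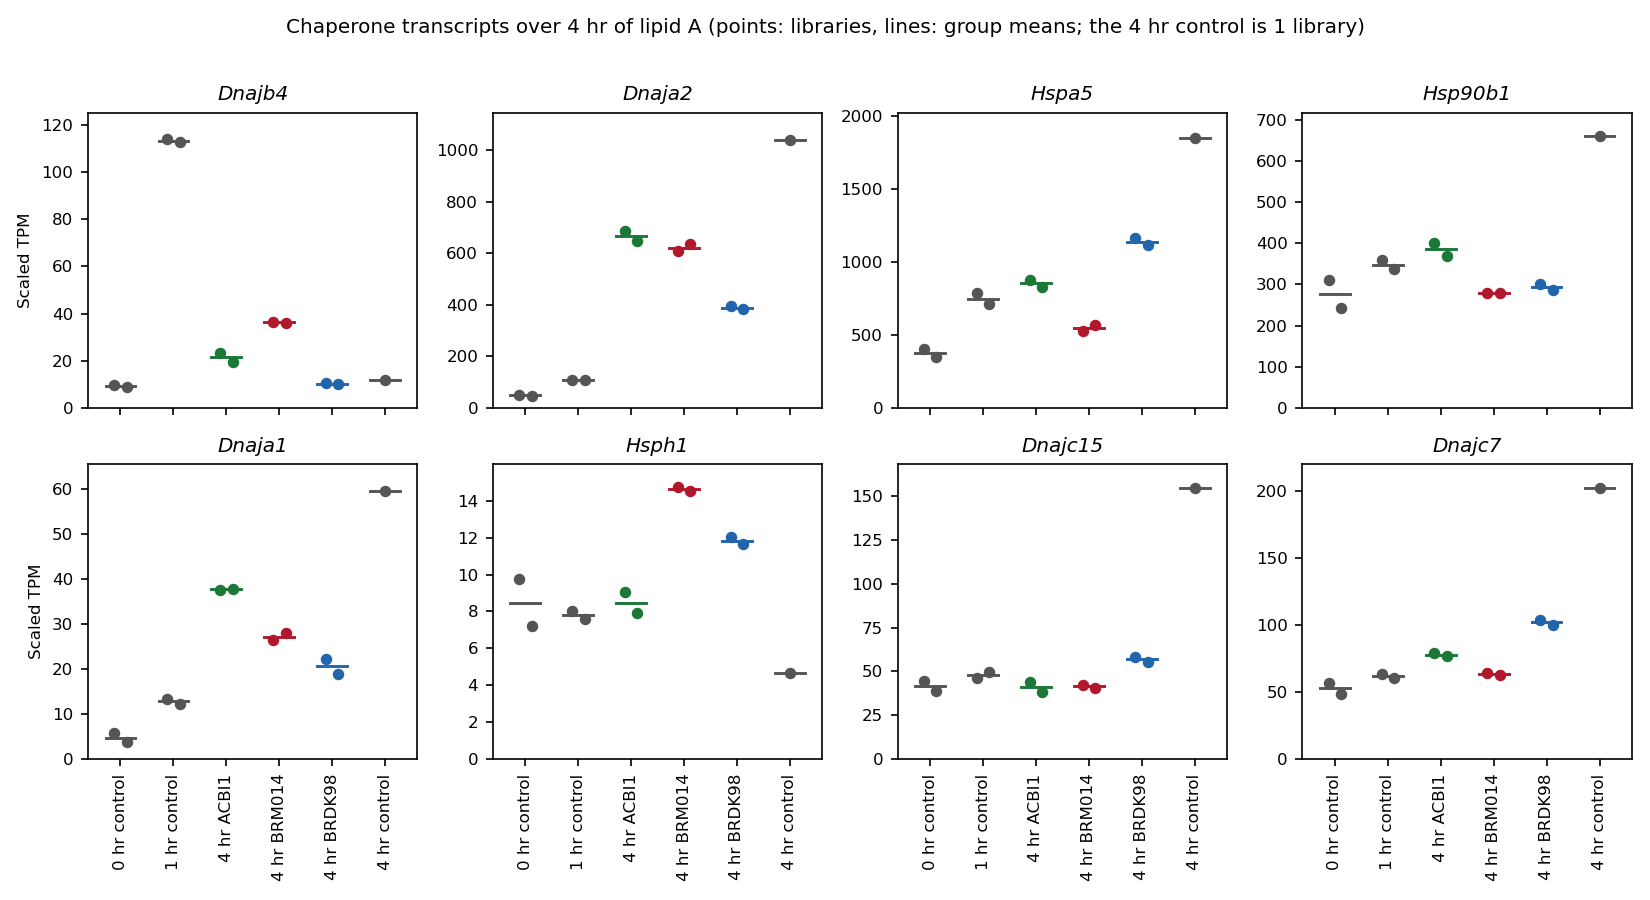
Scaled TPM of 8 chaperone genes in each library of experiment 1 (points) with group means (lines), by time of lipid A and treatment, on linear axes from 0. Hspa5 stands at 881 and 829 with ACBI1 and 531 and 568 with BRM014, against 1852 in the lone 4 hr control library.

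Hspa1a and Hspa1b were called with none of the compounds at 4 hr, where the control library held only 17 and 9 reads of them. Hspa1a stood at 1.01 and 0.909 scaled TPM with ACBI1, 1.11 and 1.31 with BRM014 and 1.52 and 1.36 with BRDK98, against 1.59 in the control, and the 95% interval of its difference was -0.60 to 0.14 with BRM014 and -0.45 to 0.28 with BRDK98. Among ER members, Hspa5 stood at 881 and 829 with ACBI1 and 531 and 568 with BRM014, against 1852, and fell in both (-1.12 ± 0.12, adjusted p = 5.31e-05, and -1.75 ± 0.12, adjusted p = 1.05e-06). With BRDK98 it stood at 1165 and 1118, a difference of -0.70 on scaled TPM and -0.05 on TPM as deposited, and was not called. Hsp90b1, the ER HSP90, fell with BRM014 to 280.4 and 280.5, against 662 (-1.23 ± 0.13, adjusted p = 2.84e-05), and the ER J-domain gene Dnajb11, a partner of Hspa5, fell too (-1.03). With BRDK98 Hsp90b1 stood at 302 and 287 (-1.16), a call that ended without BRDK98 replicate 2 (difference -1.14). Over all 11 ER members, 2 rose and 3 fell with ACBI1, 3 rose and 4 fell with BRM014 and 1 rose and 2 fell with BRDK98, where all genes gave 20.0% higher and 13.5% lower with ACBI1, 26.4% higher and 16.4% lower with BRM014 and 22.0% higher and 12.4% lower with BRDK98. Of 23 tested genes on the ER stress list, 5 rose and 1 fell with ACBI1, 3 rose and 6 fell with BRM014 and 5 rose and 3 fell with BRDK98, and Xbp1, an ER stress transcription factor gene, fell by 2.16 with BRM014.

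J-domain genes had the lowest differences with ACBI1 and BRM014. Dnajc15, of the mitochondrial inner membrane, stood at 44.1 and 38.5 with ACBI1, 42.5 and 40.8 with BRM014 and 58.2 and 55.7 with BRDK98, against 155 in the control, differences of -1.88 ± 0.12, -1.87 ± 0.12 and -1.43 ± 0.12. Dnajc7, a partner of both HSP70 and HSP90, stood at 78.7 and 77.2 with ACBI1 and 64.5 and 62.8 with BRM014, against 202 (-1.36 and -1.65). The 6 treated libraries of Dnajc15 and the 4 of Dnajc7 lay far below the 4 hr control library, while the 0 hr control libraries held 44.5 and 38.7 for Dnajc15 and 56.7 and 48.7 for Dnajc7. In Pbrm1 f/f cells Dnajc15 stood at 51.3 and 60.6 at 4 hr, against 52.3 and 47.4 at 0 hr (0.16 ± 0.15, not called). In Arid1a f/f cells it stood at 56.2 and 51.8 at 4 hr of LPS, against 47.2 and 45.2. A rise of Dnajc15 like that in experiment 1 was thus not seen in those controls. Dnajc7 rose in Pbrm1 f/f cells (1.23 ± 0.18) and stood at 77.4 and 70.2 in Arid1a f/f cells, against 54.8 and 54.7. Dnajb5 fell with BRM014 to 2.63 and 2.23, against 15.2 (-2.24 ± 0.14). Dnaja2 and Dnaja1, the leading risers of the stimulus at this time, fell with BRDK98 to 394 and 384, against 1041 (-1.42 ± 0.10), and to 22.2 and 18.997, against 59.7 (-1.496 ± 0.18). Dnajb4 rose with ACBI1 to 23.4 and 19.4 (0.81) and with BRM014 to 36.4 and 36.2 (1.55), against 11.7, and stood at 10.5 and 10.1 with BRDK98, not called. Dnajc12 rose with BRM014 (1.55) and BRDK98 (1.64), and Dnajc24, a J-domain protein of diphthamide synthesis, rose with BRDK98 (1.52).

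Of 3 HSP110 genes, 2 rose with ACBI1, 3 with BRM014 and 1 with BRDK98, and none fell, against 20.0% higher and 13.5% lower, 26.4% higher and 16.4% lower and 22.0% higher and 12.4% lower of all genes with ACBI1, BRM014 and BRDK98. Hsph1 stood at 9.06 and 7.90 with ACBI1, 14.7 and 14.5 with BRM014 and 12.03 and 11.6 with BRDK98, against 4.68 in the control (0.74 ± 0.16, 1.46 ± 0.16 and 1.18 ± 0.16). Hspa4l rose with ACBI1 to 40.5 and 34.99, against 16.5 (1.14 ± 0.19, adjusted p = 7.53e-04). Mitochondrial Hspa9 rose with BRM014, to 121 and 114 against 68.9 (0.76). Hspe1 rose with BRM014 (0.93) and BRDK98 (1.11), calls that the fit on recovered reads did not make. The small heat shock gene Hspb6 fell with all 3 compounds, to 2.54 and 2.41 with ACBI1, 2.48 and 1.54 with BRM014 and 1.98 and 1.48 with BRDK98, against 8.11. That control library was the highest of the experiment. On TPM as deposited it held 5.57, against 3.76 and 4.75 at 0 hr. In Pbrm1 f/f cells Hspb6 stood at 7.07 and 3.27 scaled TPM at 4 hr, against 3.52 and 4.06 at 0 hr. In Arid1a f/f cells it stood at 2.71 and 3.90 at 4 hr of LPS, against 5.66 and 5.42. Hspb6 overlaps Lin37 and Proser3, whose reads counting on both strands could add.

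The compounds were also compared with each other at 4 hr, where no control library enters. For BRM014 against ACBI1, 13 members were higher and 4 lower (30.3% of all genes called, 16.2% higher and 14.1% lower), a count of 11 without ACBI1 replicate 2 and 10 without BRM014 replicate 1. Hspa2 (1.17 ± 0.14), Dnajc12 (1.04 ± 0.12), Dnajb4 (0.74 ± 0.10) and Hsph1 (0.72 ± 0.13) were higher with BRM014 and Dnajb5 (-1.23 ± 0.11) was lower. For BRDK98 against ACBI1, 18 were higher and 6 lower (36.5% of all genes called, 21.2% higher and 15.4% lower), with Dnajc12 (1.14 ± 0.12) at one end and Dnajb4 (-0.98 ± 0.10) at the other. For BRDK98 against BRM014, 10 were higher and 9 lower (45.2% of all genes called, 23.2% higher and 22.1% lower). Dnajb4 (-1.72 ± 0.10), Hspa13 (-1.35 ± 0.10), Hspa9 (-1.06 ± 0.10) and Hspa4 (-0.93 ± 0.08) were lower with BRDK98, and Hspa5 (1.05 ± 0.10) and Dnajb5 (1.11 ± 0.11) were higher. These signs are opposite to those at 60 min in experiment 4 for Dnajb4, Hspa13, Hspa9, Hspa4 and Hspa5, a contrast between experiments that was not tested. The adjusted p of each gene named was 0.00179 or less.

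In macrophages lacking Arid1a, the DNA-binding subunit of one form of SWI/SNF, Hspd1, Hspa9, Hsph1 and Hsp90aa1 were higher and Hspa1b, Dnajb5 and Dnajb14 were lower at 1 and 4 hr of LPS. At 1 hr of LPS, 18 members rose and 8 fell in Arid1a-/- cells against Arid1a f/f cells (35.5% of all genes called, 18.7% higher and 16.8% lower), and at 4 hr 12 rose and 8 fell (24.8% of all genes called, 13.9% higher and 10.8% lower), each time with its own controls. The 1 hr count was 17 without replicate 2 of Arid1a f/f, and the 4 hr count was 12 without replicate 2 of Arid1a f/f and 13 without either replicate of Arid1a-/-.

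Hspd1, the mitochondrial chaperonin, stood at 27.3 and 26.3 scaled TPM in Arid1a-/- cells at 1 hr, against 11.8 and 11.8 in Arid1a f/f cells (1.12 ± 0.09, adjusted p = 1.76e-05). At 4 hr it stood at 21.01 and 19.8, against 9.22 and 8.43 (1.12 ± 0.09, adjusted p = 2.49e-05). Its partner in import and folding, Hspa9, stood at 144 and 136 in Arid1a-/- cells at 1 hr, against 70.9999 and 65.2 (1.03 ± 0.08), and at 128 and 122 at 4 hr, against 57.6 and 57.8 (1.10 ± 0.08). For both genes every Arid1a-/- library lay well above every Arid1a f/f library of its time. Dnaja3, the mitochondrial J-domain partner of Hspa9, rose at 1 hr to 20.2 and 20.4, against 10.6 and 10.4 (0.89 ± 0.10), and was not called at 4 hr. Of 8 mitochondrial members, 4 rose and 0 fell at 1 hr and 3 rose and 0 fell at 4 hr, where all genes gave 18.7% higher and 16.8% lower at 1 hr and 13.9% higher and 10.8% lower at 4 hr. Of 12 tested mitochondrial proteases and other chaperones outside the families, 5 rose and 1 fell at 1 hr, and 4 rose and 0 fell at 4 hr.

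Of 3 HSP110 genes 2 rose at each time, and of 3 HSP90 genes 2 rose at 1 hr and 3 at 4 hr, with 18.7% higher and 16.8% lower among all genes at 1 hr and 13.9% higher and 10.8% lower at 4 hr. Hsph1 stood at 14.04 and 14.97 in Arid1a-/- cells at 1 hr, against 8.002 and 7.88 (0.79 ± 0.10), and at 7.10 and 6.97 at 4 hr, against 4.47 and 4.07 (0.61 ± 0.10). Hsp90aa1 stood at 25.5 and 32.7 at 1 hr, against 19.3 and 17.2 (0.64 ± 0.13), and at 29.01 and 27.3 at 4 hr, against 17.4 and 15.3 (0.75 ± 0.13). Neither gene had overlapping libraries between genotypes. At 1 hr Hspa4 (0.63), Hsp90ab1 (0.48), Dnajc2 (0.80) and Dnajc21 (0.89), the last 2 acting in translation and ribosome assembly, rose with them, as did the ER members Dnajb11 (0.74) and Hspa5 (0.48). At 4 hr Hspa4l (0.62) and Dnajc9 (0.90), a histone co-chaperone, rose. Outside the families, beside the same shares of all genes, 9 of 14 genes for TRiC and prefoldin rose and 0 fell at 1 hr, with a median of 0.56 against -0.02 for all genes, and 5 rose and 0 fell at 4 hr (median 0.25). The co-chaperone list had 12 of 25 genes higher and 1 lower at 1 hr, led by Ahsa1 (1.39), and 3 higher and 1 lower at 4 hr. On the ER stress list, 14 of 26 genes rose and 2 fell at 1 hr, and 7 rose and 6 fell at 4 hr.

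**Figure D4:**
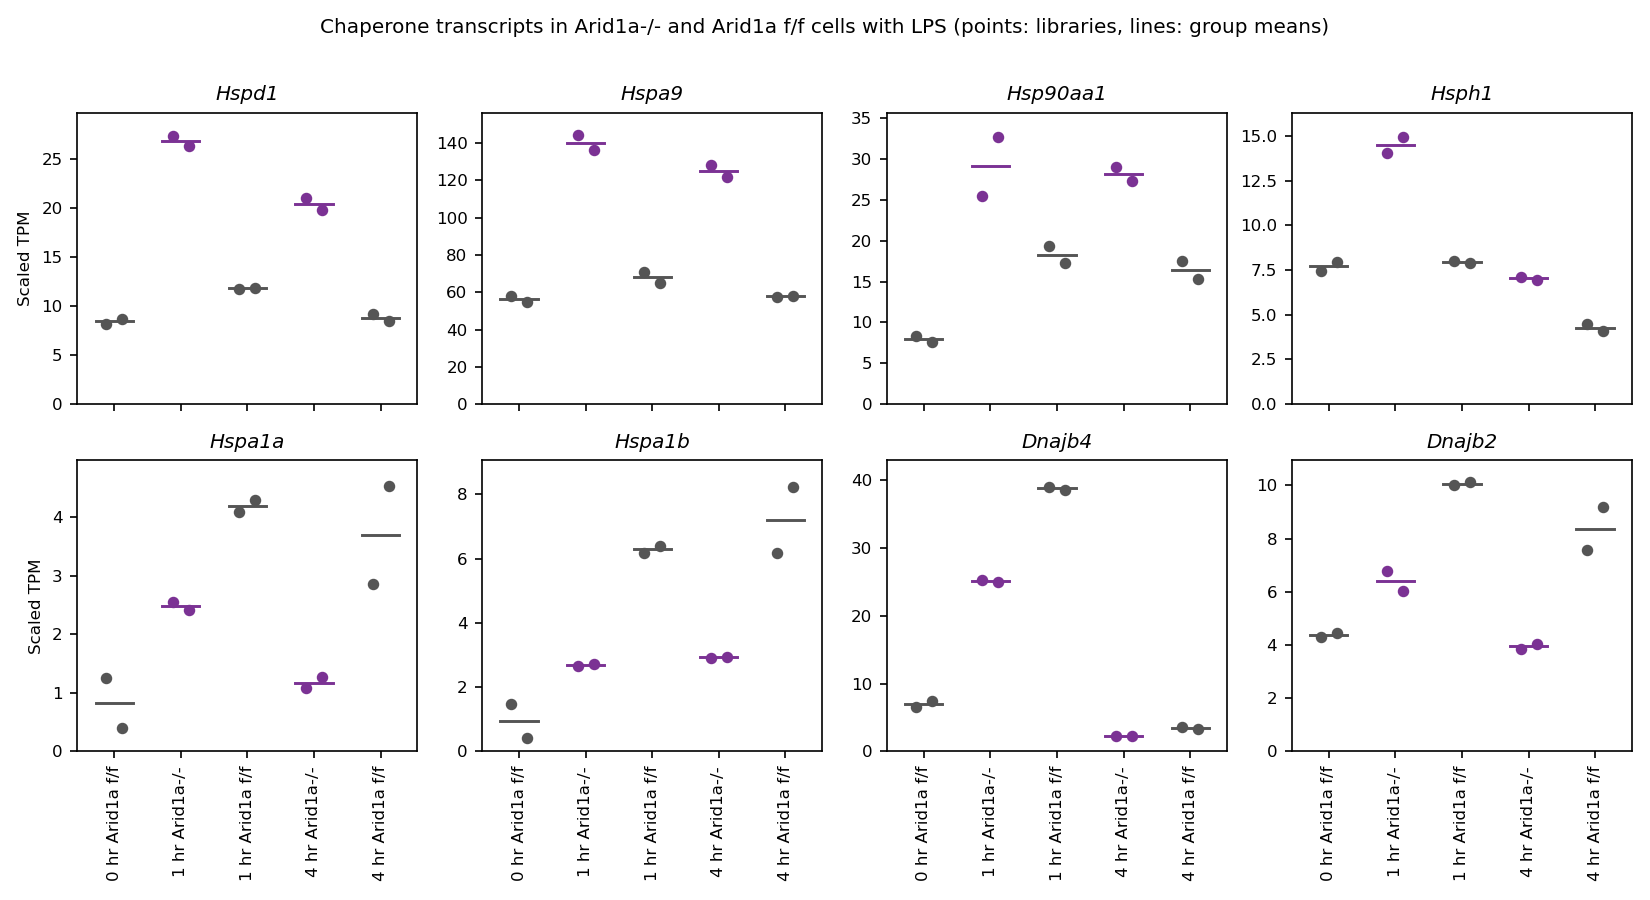
Scaled TPM of 8 chaperone genes in each library of experiment 2 (points) with group means (lines), by time of LPS and genotype, on linear axes from 0. Hspd1 and Hspa9 are higher in Arid1a-/- cells at 1 and 4 hr, and Hspa1b stands at 2.66 and 2.71 in Arid1a-/- cells at 1 hr, against 6.18 and 6.40 in Arid1a f/f cells.

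Among the members that fell were Hspa1b and several Dnajb genes. Hspa1b stood at 2.66 and 2.71 in Arid1a-/- cells at 1 hr, against 6.18 and 6.40 in Arid1a f/f cells (-0.98 ± 0.22, adjusted p = 0.00631), and at 2.92 and 2.93 at 4 hr, against 6.19 and 8.25 (-1.06 ± 0.22, adjusted p = 0.00555). Hspa1a stood at 1.08 and 1.27 at 4 hr, against 2.86 and 4.53 (-1.09 ± 0.22, adjusted p = 0.00475), and was not called at 1 hr. The libraries of these low genes did not overlap between genotypes. The Hspa1b calls ended with a pseudocount of 0.1 (-1.20 at 1 hr and -1.26 at 4 hr). At 1 hr the Hspa1b call also ended without Arid1a f/f replicate 1 (-1.01) or 2 (-0.96) or Arid1a-/- replicate 1 (-0.97). At 4 hr the calls of Hspa1a and Hspa1b ended without Arid1a f/f replicate 2 (-0.84 and -0.88), Arid1a-/- replicate 1 (-1.04 and -1.06) or Arid1a-/- replicate 2 (-1.16 and -1.07). Dnajb4 fell at 1 hr to 25.3 and 24.96, against 39.04 and 38.5 (-0.61 ± 0.10), and Dnajb5 at 1 and 4 hr (-0.66 and -0.73). Dnajb14, an ER-membrane J-domain protein, fell at both times (-0.73 and -0.75). Dnajb1 stood at 12.4 and 12.5 at 4 hr, against 20.1 and 18.8 (-0.61 ± 0.11, adjusted p = 0.00209), and was not called at 1 hr, and Dnajb2 fell at 4 hr (-0.91).

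The genotype effect differed between 4 and 1 hr for 12 members by an interaction test (15.9% of all genes called, 7.79% higher and 8.11% lower). Among those kept under each alternative tried, the effect on Dnajc21 was lower at 4 hr by 0.99, that on Dnaja3 lower by 0.91, and that on Hspa4l, an HSP110 relative, higher by 1.01 ± 0.18. The count was 4 without either replicate of 1 hr Arid1a f/f, and 6 and 7 without replicates 1 and 2 of 4 hr Arid1a-/-. The summed level of macrophage markers was 13963 and 13277 scaled TPM in Arid1a-/- cells at 1 hr, against 18725 and 18517 in Arid1a f/f cells, and 18492 and 19539 against 19503 and 18539 at 4 hr. That of granulocyte markers was 34.9 and 28.2 against 21.3 and 22.05 at 1 hr and 37.8 and 47.1 against 34.9 and 21.8 at 4 hr, with Ly6g at 0 in every library, and their part in the results was not tested.

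In Pbrm1-/- cells, which lack a subunit of another form of SWI/SNF, 0 of 53 tested members were called against Pbrm1 f/f cells at 4 hr of lipid A, where 1 gene of 11044 was (0.00905% of all genes called, 0% higher and 0.00905% lower). At an unadjusted p under 0.05 the count was 1, the fit on recovered reads gave 0, and leaving out Pbrm1 f/f replicate 1 gave 2. The authors' deposited table gave 0, beside 11 of all genes. Hspa5 stood at 1304 and 1138 scaled TPM in Pbrm1-/- cells, against 1096 and 1122 in Pbrm1 f/f cells, with a 95% interval of the difference of -0.23 to 0.50. Hspa8 stood at 513 and 545, against 475 and 324 (interval -0.03 to 0.89), and Hspd1 at 7.04 and 5.74, against 5.99 and 7.11 (interval -0.41 to 0.34). For Hspa5 and Hspa8 the Pbrm1-/- libraries lay above the Pbrm1 f/f ones, and for Hspd1 the groups overlapped. These intervals do not mark the smallest difference that would have been called. With 2 libraries a group larger differences could also go uncalled, as that of Pbrm1 itself did. Granulocyte markers summed to 398 and 457 in Pbrm1-/- cells, against 545 and 556 in Pbrm1 f/f cells, and their part was not tested.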

How the data were processed

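Poly(A)+ RNA of mouse bone marrow-derived macrophages was sequenced with a stranded kit in single-end reads of 50 bases, per the labels' protocols. The submitters' processing notes name STAR 2.5.3a, HOMER and GRCm38/mm10. The authors deposited TPM per gene, counted in exons on both strands with HOMER, per the file headers. The authors also deposited log2 fold changes with adjusted p-values from DESeq2, run through HOMER per the file headers, and these are used in sentences that credit the authors' deposited table. A further 46 columns of transformed values and 1 TPM column that repeats another were not used, and all 45 remaining TPM libraries were.

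For each experiment the TPM were divided by a median-ratio factor per library (0.687 to 1.56), and both scaled and deposited TPM were tested as log2(value + 1) with limma 3.58.1 in R 4.3.3, with trend and robust moderation, over genes that reached 1 TPM in 2 or more libraries. All groups of an experiment entered 1 fit, and p-values were adjusted by Benjamini-Hochberg over all tested genes of a comparison. Printed differences, SE and adjusted p are from scaled TPM. Whole reads were recovered from the steps of the TPM values, and limma voom was run on them. A count of 3 reads on 2 kb of transcript corresponds to 0.0654 to 0.298 TPM, which covers counting error only.

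Key members (20 chaperones) were named in each comparison, with up to 5 called members at each end among those with a group mean of at least 5 TPM, and up to 4 called genes of each other list. Members and lists were chosen with earlier results of these data known. Replicate numbers were not used to pair the libraries in the main fit. Correlations of same-numbered deviations ranged from -0.242 to 0.252, and from 0.00689 to 0.218 in experiment 3. These values do not settle whether the replicates were paired. The scripts were tested on simulated data. Alternatives were the scale, the pseudocount, the filter, the moderation, a replicate block, the read-based fit and each library left out.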

Additional observations from a re-analysis of the deposited data

Results flagged for a closer look

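Effects of the same perturbation at 2 times were compared by an interaction term in the fit across all genes, on both scales, and the members whose effect differed are given here as log2 differences, the later effect minus the earlier one. The times of a perturbation have separate controls.

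The ACBI1 effect at 60 min differed from that at 20 min for 9 of 57 members, beside 18.5% of all genes called, 9.37% higher and 9.12% lower, so the count says nothing particular to the members. It was higher for Dnaja2 (0.98), Hspa8 (0.80), Hspa5 (0.62) and Dnajc7 (0.58). It was lower for Dnajc12 (-0.87), Dnajb4 (-0.72), Dnajb9 (-0.54), Dnajb1 (-0.49) and Dnajc9 (-0.43), the calls of Dnajb9 and Dnajc9 ending when any 1 of the 8 libraries was left out.

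The BRM014 effect differed between these times for 19 members (13.3% of all genes called, 6.85% higher and 6.41% lower). It was higher at 60 min for Dnajb1 (3.82), Hspa1b (2.62), Hspa1a (2.41), Hspa2 (2.01) and Dnaja1 (1.59). It was lower for Hspa13 (-0.95), Dnajb5 (-0.91), Dnajb4 (-0.80), Dnaja2 (-0.61) and Dnajb2 (-0.60).

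The BRDK98 effect differed for 9 members (6.66% of all genes called, 3.58% higher and 3.08% lower). It was higher at 60 min for Hspa1a (2.77), Dnajb4 (1.82), Hspa13 (1.16), Dnajc12 (1.11) and Hspa9 (0.87), and for 0 members lower.

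The Arid1a-/- effect at 4 hr differed from that at 1 hr for 12 members (15.9% of all genes called, 7.79% higher and 8.11% lower). It was higher at 4 hr for Hspa4l (1.01), Dnajc12 (0.81) and Dnajc9 (0.53), and lower for Dnajc21 (-0.99), Dnaja3 (-0.91), Dnajc11 (-0.60), Hspa5 (-0.58) and Dnajb1 (-0.57). The Dnajc9 call was not made in the fit on recovered reads (difference 0.60, adjusted p = 0.0515 by limma voom), and it and the Dnajb1 call also ended without 5 and 6 of the 8 libraries, each left out alone. The count ranged from 4 to 16 when 1 library was left out.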

How the results depend on the processing

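Depth and 2 libraries a group limit what was detectable, and members near 1 scaled TPM rest on few reads. Of 329 named values, 243 were called under every setting, and of 3681 recomputed values 276 lost their call, 232 of them on leaving out a library, while 0 changed sign. The 3681 include 329 on deposited TPM only and 329 on scaled TPM only. Those could not lose their call, since a call already needed both scales. The voom fit on reads lost 8, no trend or robust moderation 10, no filter 16 and a pseudocount of 0.1 lost 3. The replicate block lost 7 and left the number of members called with BRM014 at 60 min at 24. The cause of these changes was not tested, except that a call on 1 scale needs less than a call on both.

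On TPM as deposited alone, members called numbered 34 for 1 against 0 hr in experiment 1, 36 for BRDK98 at 4 hr, 26 for BRM014 against ACBI1 at 4 hr, 47 and 39 for 4 against 0 hr in Arid1a f/f and Pbrm1 f/f cells, 38 for 60 against 0 min, 26 for ACBI1 at 60 min, 44 for BRDK98 against ACBI1 at 60 min and 14 for the difference of ACBI1 effects. On scaled TPM alone they numbered 34 for BRDK98 at 4 hr, 41 and 25 for 4 against 0 hr in Arid1a f/f and Pbrm1 f/f cells, 29 for 60 against 0 min, 2 for BRDK98 at 20 min and 14 for the difference of ACBI1 effects. The members higher numbered 26 of 36 (deposited) and 10 of 34 (scaled) for BRDK98 at 4 hr, 13 of 47 and 29 of 41 for 4 against 0 hr of LPS, and 13 of 38 and 23 of 29 for 60 against 0 min. By voom they numbered 32 for 1 against 0 hr in experiment 1, 31 for BRDK98 at 4 hr, 26 for BRM014 against ACBI1 at 4 hr, 40 and 25 for 4 against 0 hr in Arid1a f/f and Pbrm1 f/f cells, 1 and 2 for BRM014 and BRDK98 at 20 min and 15 for the difference of ACBI1 effects. With a pseudocount of 0.1 they numbered 1 and 3 for BRM014 and BRDK98 at 20 min. These counts, those at an unadjusted p under 0.05 and those with 1 library left out stand without the share of all genes under the same setting. They show only how the number of members called changed with the setting.

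Leaving out 1 library, members called ranged from 10 to 14 for BRM014 against ACBI1 at 4 hr, 10 to 14 for 1 against 0 hr of LPS, 17 to 30 and 12 to 17 for Arid1a-/- at 1 and 4 hr, 4 to 16 for their difference, 8 to 12 for 4 against 0 hr in Pbrm1 f/f cells, 0 to 2 for Pbrm1-/-, 0 to 2 for 20 against 0 min, 0 to 0 for BRDK98 at 20 min, 7 to 11 for ACBI1 and 19 to 38 for BRM014 at 60 min, and 14 to 18 for BRDK98 against ACBI1 at 60 min.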

Other observations

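In the authors' deposited tables, members at an adjusted p under 0.05 at 60 min numbered 18 with ACBI1 (11 higher, 7 lower), 15 with BRM014 (11 and 4) and 14 with BRDK98 (13 and 1). All genes gave 3286, 1183 and 1461. At 4 hr they numbered 26 with ACBI1 (6 higher, 20 lower), 35 with BRM014 (13 and 22) and 33 with BRDK98 (11 and 22). All genes gave 4897, 5893 and 5756. For Arid1a-/- cells members numbered 18 at 1 hr (12 higher, 6 lower) and 17 at 4 hr (11 and 6), beside 2674 and 2731 of all genes. Each member called here had the same sign in the authors' deposited table in all of these comparisons.

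Hspa1l, the testis-type neighbour of the inducible HSP70 pair, held 25 and 104 reads in the BRM014 libraries at 60 min, against 22 and 21 in control cells, so that its level stood apart in 1 library, at 0.790 and 2.91 scaled TPM with BRM014.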
